A study of Homo sapiens with 9 samples.

Results

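TRPV6 and IL20RB were examined together with IL20RA and IL22RA1, a set of 4 genes measured by 6 of the 50599 probes on the array. TRPV6 and IL20RB were chosen by their expression, since they ranked 2 and 3 among the falls with trichostatin A (TSA) in control cells, and IL20RB was also chosen on its fall with UHRF1 depletion and TSA combined. IL20RA and IL22RA1 were selected by name, as the chains that pair with IL20RB. The probes were all those listed under these 4 gene names. Being low with TSA is thus how TRPV6 and IL20RB were picked, and IL20RA and IL22RA1 were not low with it.

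RKO, a colorectal cancer cell line, was transfected with a control siRNA (siCONT) or a siRNA against UHRF1 (siUHRF1) for 72 h, and then received ethanol as mock or 300 nM TSA for 24 h. Each of these 4 groups had 2 arrays. In both siUHRF1 groups, replicate 1 carried siUHRF1-1 and replicate 2 carried siUHRF1-2, so each UHRF1 siRNA was on 1 array a group. A single further array held RKO cells given the demethylating drug 5-aza-dC at 1 µM, without siRNA, over 72 h. The depletion was transient, all cells came from 1 line, and the sources do not say whether the arrays of a group came from separate cultures, so p-values measure the spread between these arrays only.

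UHRF1 reads hemi-methylated DNA and brings DNA methyltransferase to it, TSA inhibits histone deacetylases, and 5-aza-dC traps DNA methyltransferases. TRPV6 is an epithelial calcium channel of the TRP family, selective for calcium and known for uptake across the intestinal lining, where vitamin D raises its expression. IL20RB is a chain of class II cytokine receptors. It pairs with IL20RA to bind IL-19, IL-20 and IL-24, and with IL22RA1 to bind IL-20 and IL-24. IL22RA1 also pairs with IL10RB as the IL-22 receptor of epithelial cells. These receptors signal through JAK kinases and STAT3.

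The first 30 bases of the 60-base probes are shown because each gene's values rest on 1 or 2 such probes, and their positions are given on hg19, the build of the array's annotation. The TRPV6 probes lie at chr7:142569280-142569339 (A_23_P71170) and chr7:142569383-142569442 (A_33_P3364854), on the minus strand, and do not overlap. The IL20RB probe lies at chr3:136729798-136729857 on the plus strand. The IL20RA probes lie at chr6:137321197-137321256 (A_23_P145514) and chr6:137330025-137330084 (A_33_P3421118), the latter annotated to another transcript, and the IL22RA1 probe is listed at chr1:24446235-24446278, all on the minus strand. Whether these positions are exonic or in a UTR was not annotated here.
TRPV6 A_23_P71170: catgaacgccaaggaatgtacgttgagaat
TRPV6 A_33_P3364854: gcttcctggaacttgctctcattttcctgg
IL20RB A_23_P91850: tatgtgtgcaatgcgacgagaatgcagaag
IL20RA A_23_P145514: tcagagtgttctgttattctcaatctttat
IL20RA A_33_P3421118: gtccagttcctgaccatgctctgctgagct
IL22RA1 A_23_P62607: acctacctcatggagattgtggtgaagatg

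The 250 bases before the RefSeq start of TRPV6 and of IL20RB are shown because these genes were the low ones with TSA and because 5-aza-dC and UHRF1 act on methylated CpG sites, marked in capitals. On GRCh38.p14 the TRPV6 stretch is chr7:142885746-142885995 on the minus strand and that of IL20RB is chr3:136957733-136957982 on the plus strand. Methylation was not measured on these arrays.
TRPV6 promoter: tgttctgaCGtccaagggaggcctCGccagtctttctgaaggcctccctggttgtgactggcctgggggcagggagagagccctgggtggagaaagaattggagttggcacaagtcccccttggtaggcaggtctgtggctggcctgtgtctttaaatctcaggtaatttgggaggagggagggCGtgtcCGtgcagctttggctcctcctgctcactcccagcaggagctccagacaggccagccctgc
IL20RB promoter: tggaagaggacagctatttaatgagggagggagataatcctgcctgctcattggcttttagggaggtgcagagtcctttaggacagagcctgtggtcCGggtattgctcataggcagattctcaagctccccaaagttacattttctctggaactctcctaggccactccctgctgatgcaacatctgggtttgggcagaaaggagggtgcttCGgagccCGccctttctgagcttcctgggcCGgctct

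Each of these stretches held 4 CpG sites, against a median of 11 over 35114 RefSeq promoters of the same length, and 29.3% of promoters held fewer. The ratio of observed to expected CpG was 0.179 for TRPV6 and 0.225 for IL20RB, against a median of 0.558. The IL22RA1 promoter held 7 CpG sites, and the RefSeq starts of IL20RA, of which there are 2, had 13 and 28. Short motifs were then searched on both strands of the 250 bases, with the share of all promoters that hold each as background. GGGCGG, the core of a GC box, was in 42.6% of all promoters, and was found 1 time for IL20RB and not for TRPV6. TATAAA was in 10.72% of promoters and in neither of these. The AP-1 motif TGANTCA was in 6.57% and the STAT motif TTCNNNGAA also in 6.57%, and neither was found for TRPV6 or IL20RB. These matches describe the letters of the window and not binding.

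Levels are log2 signals relative to the 75th percentile of the array, a signal between 245 and 338 for the 8 siRNA arrays and of 822 for 5-aza-dC. A level of 0 is thus the brightness of the 75th percentile. The scanner software calls a spot well above background or not, and 43.6% to 46.6% of probes were so on the siRNA arrays. The lowest level called above background was between -4.53 and -4.21 there, and with 5-aza-dC it was -4.99. All siRNA arrays shared 1 slide and 1 scan, with mock arrays in row 1, TSA arrays in row 2, siCONT in columns 1 and 2 and siUHRF1 in columns 3 and 4, so slide position cannot be told apart from treatment. The targeted gene, UHRF1, had a log2 fold change of -2.47 by its brighter probe without TSA (adjusted p = 0.00238, limma) and of -3.35 under TSA (adjusted p = 0.000132, limma). Of the markers fixed for other cell types, 0 to 2 of 5 for blood cells were above background on the siRNA arrays, with their highest level between -4.71 and -3.396. Of 7 epithelial markers, 3 or 4 were above background there, while CDH1 and VIL1 were below it on all 9 arrays and EPCAM was above it on 1 siRNA array. Of 5 fibroblast markers, 1 or 2 were above background, and 4 on both siUHRF1 + TSA arrays, whose highest marker level was -1.51 and -0.56. Of 4 endothelial markers, 1 or 2 were above background, and VWF had levels of -4.70 and -4.51 in siCONT and of -0.77 and -1.08 in siUHRF1 + TSA. The part of such cells in the results was not tested.

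TRPV6 stood near the 75th percentile without TSA and was low or undetected with it. The level of A_23_P71170 was -0.82 and -0.95 in siCONT, -0.13 and -0.03 in siUHRF1, -4.44 and -5.50 in siCONT + TSA, -2.19 and -2.93 in siUHRF1 + TSA, and -5.83 with 5-aza-dC. Both siUHRF1 arrays were the highest, both siCONT arrays came next, and the siUHRF1 + TSA arrays lay below them without overlap. On the siCONT + TSA arrays and the 5-aza-dC array, the probe was not well above background, so these values have no order among themselves. The other TRPV6 probe, A_33_P3364854, had levels of -0.68 and -0.50 in siCONT, 0.13 and 0.11 in siUHRF1, -5.45 and -6.06 in siCONT + TSA, -2.65 and -3.01 in siUHRF1 + TSA, and -6.86 with 5-aza-dC. It gave the same order of the groups and was below background on the same 3 arrays.

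IL20RB had a level of -0.73 and -0.67 in siCONT, 0.03 and 0.87 in siUHRF1, -5.13 and -4.42 in siCONT + TSA, -3.73 and -3.31 in siUHRF1 + TSA, and -3.02 with 5-aza-dC. The siRNA groups stood in the same order as for TRPV6, with no overlap between any pair of them. The higher of the siUHRF1 levels was that with siUHRF1-2. IL20RB was not well above background on either siCONT + TSA array. It was above background on the 5-aza-dC array, where TRPV6 was not.

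IL20RA and IL22RA1, the partner chains, were dim but measured. IL20RA by A_23_P145514 had levels of -2.60 and -2.98 in siCONT, -2.79 and -2.42 in siUHRF1, -2.58 and -2.29 in siCONT + TSA, -2.96 and -2.28 in siUHRF1 + TSA, and -4.16 with 5-aza-dC. It was above background on all 9 arrays, and the siRNA groups were close together, and siCONT + TSA was the one group with both arrays above those of siCONT. The IL20RA probe A_33_P3421118 was above background on 3 of 9 arrays, 1 each in siUHRF1, siCONT + TSA and siUHRF1 + TSA, with group means from -4.22 to -3.90 among the siRNA groups, and it did not enter the tests. IL22RA1 had levels of -1.77 and -1.90 in siCONT, -1.59 and -1.53 in siUHRF1, -1.37 and -1.55 in siCONT + TSA, -1.73 and -1.24 in siUHRF1 + TSA, and -4.07 with 5-aza-dC. It was above background on all 9 arrays and was lowest with 5-aza-dC.

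**Figure D1:**
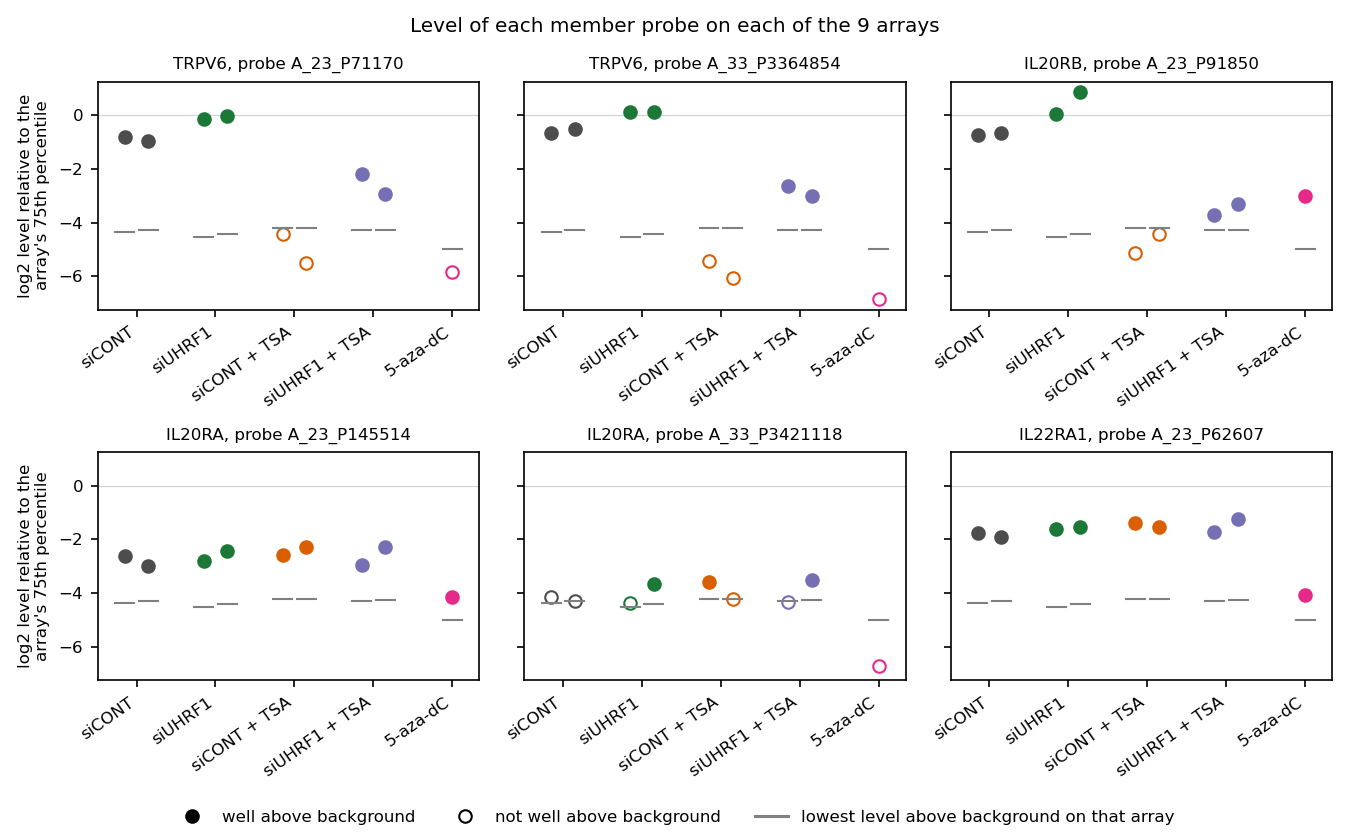
Level of each of the 6 probes on each of the 9 arrays, as log2 signal relative to the array's 75th percentile, by group. Each point is 1 array, open points are not well above background, and grey bars give the lowest level above background on that array. TRPV6 and IL20RB fall to or near the grey bars with TSA, while IL20RA by A_23_P145514 and IL22RA1 stay between -2.98 and -1.24 on the siRNA arrays.

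TSA in control cells, siCONT + TSA against siCONT, is the comparison that chose TRPV6 and IL20RB, so their values in it are a description and no test is drawn from them. The log2 difference was -4.09 for TRPV6 by A_23_P71170 and -5.16 by A_33_P3364854, and -4.08 for IL20RB. Among 13468 genes, each taken by its brightest tested probe, only NUPR1 had a lower value (-4.26), and the next gene after IL20RB was KLHDC7B (-3.63). Because both siCONT + TSA arrays were below background, the supported statement is a limit. With those arrays put at their lowest level above background, TRPV6 was at least 10.0-fold lower by A_23_P71170 and at least 12.3-fold lower by A_33_P3364854, and IL20RB at least 11.4-fold lower. These sizes rest on the processed signal, since with normexp background correction the log2 differences were -1.12 and -1.21 for TRPV6 and -1.28 for IL20RB. In the same comparison IL20RA changed by 0.36 (95% interval -0.30 to 1.01, adjusted p = 0.429, limma) and IL22RA1 by 0.37 (95% interval -0.05 to 0.80, adjusted p = 0.222, limma), neither of which passed. Over all genes tested, 4.27% were called lower and 7.51% higher at an adjusted p below 0.05.

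TSA in UHRF1-depleted cells, siUHRF1 + TSA against siUHRF1, uses 4 arrays that did not choose TRPV6. By A_23_P71170, the log2 fold change of TRPV6 was -2.48 (standard error 0.38, 95% interval -3.40 to -1.56, adjusted p = 0.0123, limma), a level 5.58-fold lower. By A_33_P3364854 it was -2.95 (standard error 0.22, 95% interval -3.49 to -2.42, adjusted p = 0.00174, limma). Both siUHRF1 + TSA arrays were above background and below both siUHRF1 arrays on each probe. Of all genes, 6.11% were called lower and 11.5% higher in this comparison, and TRPV6 ranked 11th from the lowest of 13468. The call on A_23_P71170 was lost without siUHRF1 replicate 1 (adjusted p = 0.05004, limma, with a log2 fold change of -2.53). With normexp background correction, the log2 fold changes of TRPV6 were -1.63 and -1.78 (adjusted p = 0.00510 and 0.00332, limma).

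The log2 difference of IL20RB between siUHRF1 + TSA and siUHRF1 was -3.97, a level 15.7-fold lower, and had the lowest value of the 13468 genes. This is given without a test, because the siUHRF1 + TSA arrays also served in choosing it. IL20RA differed by -0.01 (95% interval -0.67 to 0.64, adjusted p = 0.977, limma) and IL22RA1 by 0.08 (95% interval -0.35 to 0.50, adjusted p = 0.801, limma). IL20RB was chosen for its fall and these partner chains by name, so the gap in size between them is a description.

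**Figure D2:**
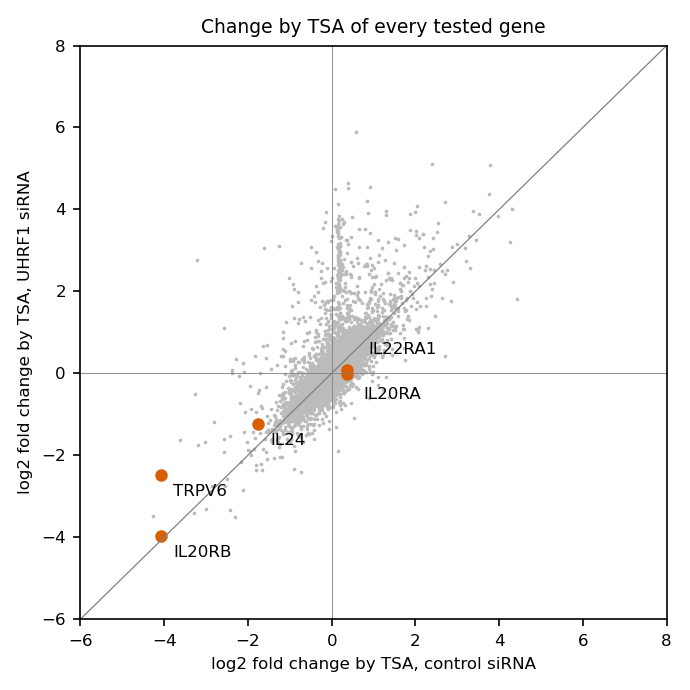
Log2 fold change with TSA in control siRNA cells (horizontal axis) against that in UHRF1 siRNA cells (vertical axis) for 13468 genes, each a grey point, with 5 named genes in orange and the line of equal change. These comparisons share no array. IL20RB lies near the line at -4.08 and -3.97, TRPV6 lies above it at -4.09 and -2.48, and IL20RA and IL22RA1 lie near 0. The horizontal values of IL20RB and TRPV6 rest on siCONT + TSA arrays below background. No direction is thus read from their place relative to the line.

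UHRF1 depletion without TSA, siUHRF1 against siCONT, shares its siCONT arrays with the comparison that chose the genes. The values of TRPV6 and IL20RB are thus a description. Their adjusted p-values are printed only to show that none passed, and no call is drawn from them. TRPV6 was 0.80 higher on the log2 scale by A_23_P71170 (95% interval -0.11 to 1.72, adjusted p = 0.624, limma) and 0.71 higher by A_33_P3364854 (95% interval 0.17 to 1.25, adjusted p = 0.386, limma). IL20RB was 1.15 higher (95% interval 0.32 to 1.98, adjusted p = 0.360, limma). Both siUHRF1 arrays lay above both siCONT arrays for each of these probes, and none passed the test over all probes. Few genes did, with 0.624% called higher and 0.0149% lower. IL20RA was 0.18 higher (adjusted p = 0.918, limma) and IL22RA1 0.27 higher (adjusted p = 0.764, limma).

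UHRF1 depletion under TSA, siUHRF1 + TSA against siCONT + TSA, has as its baseline the siCONT + TSA arrays, whose low values chose TRPV6 and IL20RB, so their values are a description with no test. The log2 difference of TRPV6 was 2.41 by A_23_P71170 and 2.92 by A_33_P3364854. As limits, with the siCONT + TSA arrays at their lowest level above background, TRPV6 was at least 3.13-fold and at least 2.60-fold higher. The log2 difference of IL20RB was 1.26, and it was at least 1.61-fold higher. Of all genes, 3.40% were called higher and 0.616% lower. The difference in IL20RA was -0.19 (adjusted p = 0.783, limma) and in IL22RA1 -0.02 (adjusted p = 0.967, limma).

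This comparison depended on how background was treated. With normexp background correction in place of the software's processed signal, the difference was 0.084 for TRPV6 by A_23_P71170, -0.020 by A_33_P3364854 and -0.27 for IL20RB. After normexp, the median level of 24136 probes below background on every siRNA array was -1.28 on siCONT + TSA replicate 2 and between -2.67 and -2.27 on the other 7 siRNA arrays, whereas by the processed signal these medians lay between -6.50 and -6.08. With normexp and that array left out, the difference of TRPV6 by A_23_P71170 was 0.49.

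The difference between the TSA effects holds the choosing comparison, so it too is given without a test. It was 1.61 for TRPV6 by A_23_P71170, 2.21 by A_33_P3364854 and 0.10 for IL20RB. With normexp these were -0.52, -0.57 and -1.20, so no direction is read from them. With the siCONT + TSA arrays raised to their lowest level above background, these differences were 0.84, 0.66 and -0.46. Over all genes, 0.386% were called higher and 0.00743% lower. For siUHRF1 + TSA against siCONT, which also served to choose IL20RB, the log2 differences were -1.67 and -2.24 for TRPV6 and -2.82 for IL20RB, given without a test.

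**Figure D3:**
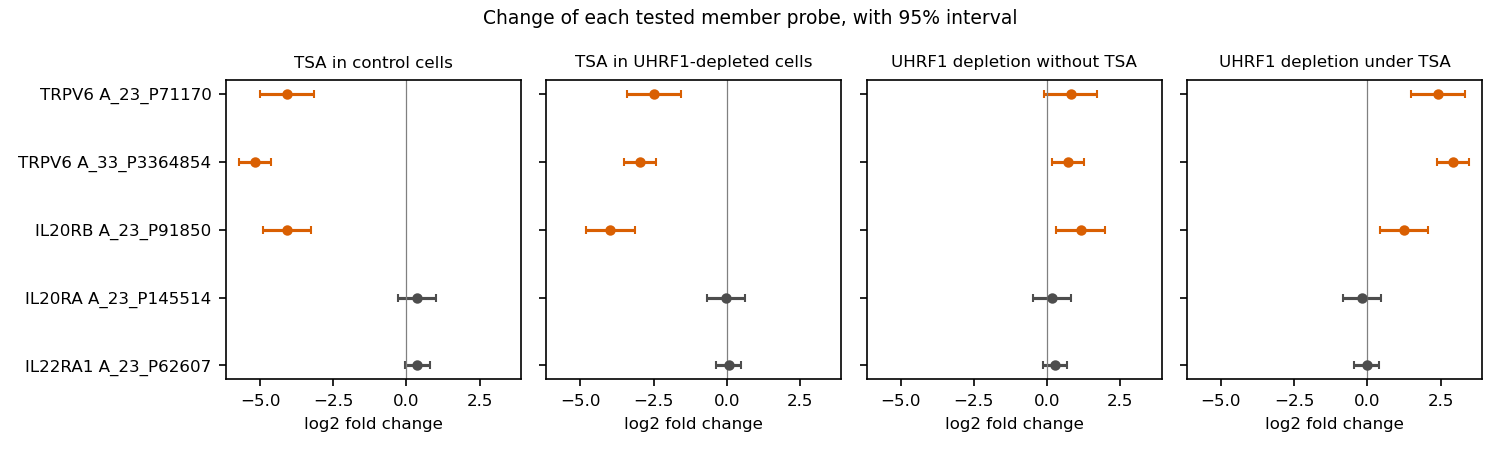
Log2 fold change (horizontal axis) of each of the 5 tested probes in 4 comparisons, with 95% intervals from limma as bars. In the left panel, in the right one, and for IL20RB in the second, the values in orange rest on arrays that chose the genes and carry no test. Those in the third panel share the siCONT arrays of that choice, and no call is drawn from them. The intervals of TRPV6 in TSA-treated UHRF1-depleted cells lie below 0, and those of IL20RA and IL22RA1 include 0 in all 4 panels.

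With 5-aza-dC, all 4 members had lower levels than in siCONT. On that array 4 of 5 blood cell markers were above background, with a highest level of -1.42, and EPCAM had a level of -0.11, and the part of this in the result was not tested. The array had no replicate, no siRNA, and its own slide and scan, so these are values with no test and cannot be told apart from those differences. TRPV6 was below background and at least 17.2-fold lower by A_23_P71170 and at least 21.1-fold lower by A_33_P3364854. IL20RB was 5.00-fold lower, IL22RA1 4.71-fold lower, and IL20RA by A_23_P145514 2.59-fold lower. Of 26727 probes, 13.6% were over 2-fold lower and 18.5% over 2-fold higher. These directions held under each setting tried, with sizes that varied. With normexp, TRPV6 was 6.88-fold lower by A_23_P71170 and 9.55-fold by A_33_P3364854, IL20RB 3.57-fold, IL22RA1 2.87-fold and IL20RA 2.30-fold lower. Scaling on the spike-in probes, which moved the median of all probes to -1.67, gave log2 differences of -6.64 for TRPV6 by A_23_P71170, -4.02 for IL20RB, -3.93 for IL22RA1 and -3.07 for IL20RA.

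Among the class II cytokine receptors, to which IL20RB, IL20RA and IL22RA1 belong, 10 of 12 genes were tested, and IL10RA and IL22RA2, the soluble decoy for IL-22, were below background on all arrays. IL20RB had the largest fall of these receptors with TSA, but it was chosen on such a fall, so this is a description. In control cells, apart from IL20RB, which that comparison chose, 1 of the 10 was called lower and none higher, against 4.27% and 7.51% of all genes. It was IL10RB, the chain shared by the IL-10, IL-22 and interferon lambda receptors, which fell by 0.55 (adjusted p = 0.0441, limma). The median log2 fold change was -0.10 over these receptors and 0.07 over all genes. In UHRF1-depleted cells, apart from IL20RB, given without a test, 1 was called lower and none higher, against 6.11% and 11.5% of all genes. It was the interferon gamma receptor chain IFNGR1, which fell by 0.44 (adjusted p = 0.0314, limma), and the median was -0.30 against 0.07. Both of these smaller calls were lost with normexp or spike-in scaling. At an unadjusted p below 0.05, 4 of the 10 were lower and 0 higher with TSA, in control and in depleted cells alike. These were F3, IFNGR1, IL10RB and IL20RB, the last given without a test. Of 13468 genes, 1583 were lower and 2667 higher at that level in control cells, and 1763 and 3011 in depleted cells.

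With UHRF1 depletion, 0 of the 10 receptors were called by limma without TSA, where 0.624% of all genes were called higher and 0.0149% lower. At an unadjusted p below 0.05, 1 was higher, IL20RB, from which no call is drawn, and 0 lower. Of 13468 genes, 837 were higher and 332 lower at that level. Under TSA 0 were called, where 3.40% of all genes were called higher and 0.616% lower. At an unadjusted p below 0.05, 2 were higher and 2 lower, against 1546 and 955 of 13468 genes. IL20RB, whose value there carries no test, was among those higher. IFNLR1, the interferon lambda receptor chain beside IL22RA1 on chromosome 1, had a log2 fold change of -0.09 with TSA in control cells (adjusted p = 0.808, limma) and -0.36 in depleted cells (adjusted p = 0.293, limma). With 5-aza-dC, 3 of these 10 receptors were over 2-fold lower, IL20RB, IL22RA1 and IL20RA, where 13.6% of all probes were, and 1 was over 2-fold higher, where 18.5% were. The latter, F3 or tissue factor, was 2.56-fold higher, but lower under spike-in scaling.

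Of the 9 ligands of the IL-10 family and type III interferons, only IL24, which binds both receptors that hold IL20RB, was measured well enough to test. Its levels were -2.86 and -2.83 in siCONT, -1.31 and -1.67 in siUHRF1, -4.33 and -4.91 in siCONT + TSA, -2.78 and -2.70 in siUHRF1 + TSA, and 0.73 with 5-aza-dC. The siUHRF1 arrays were the highest of the siRNA arrays and the siCONT + TSA arrays, both below background, the lowest. Those of siCONT and siUHRF1 + TSA lay between and close together, unlike those of IL20RB. IL24 fell by 1.77 on the log2 scale with TSA in control cells (adjusted p = 0.0114, limma) and by 1.25 in depleted cells (adjusted p = 0.0164, limma). With UHRF1 depletion it rose by 1.88 under TSA (adjusted p = 0.00724, limma) and by 1.35 without TSA, which did not pass (adjusted p = 0.0725, limma). As limits, which these p-values do not test, IL24 was at least 2.57-fold lower with TSA in control cells. It was at least 2.77-fold higher with depletion under TSA.

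IL24 did not keep these calls with normexp, under which its log2 fold change was 0.19 with TSA in control cells, -0.55 in depleted cells and -0.11 with depletion under TSA. With 5-aza-dC, IL24 was 11.9-fold higher than in siCONT, higher under each scaling tried, while the level of IL20RB was lower. IL19, IL20, IL10, IL26, IFNL1 and IFNL3 were below background on all 9 arrays, IL22 was above it on the 5-aza-dC array, and IFNL2 was above it on 3 arrays.

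Of the 18 JAK-STAT genes that act behind these receptors, 17 were tested with TSA. In these comparisons CISH, a feedback inhibitor of cytokine signalling, was the one called, higher by 0.69 with TSA in control cells (adjusted p = 0.0486, limma) and by 0.82 in depleted cells (adjusted p = 0.0254, limma). Neither call held under spike-in scaling or normexp. In each comparison 1 of the 17 was called higher and 0 lower. Among all genes, 7.51% were called higher and 4.27% lower in control cells, and 11.5% and 6.11% in depleted cells. The median over the 17 was -0.04 and -0.07, against 0.07 over all genes in each comparison. The log2 fold change of STAT3 was -0.04 and 0.20 (adjusted p = 0.916 and 0.463, limma). With both treatments together, CISH, SOCS1, PIAS3 and STAT5A passed, with log2 fold changes of 0.89, 0.99, 0.44 and 0.46 (adjusted p = 0.0134, 0.0238, 0.0334 and 0.0356, limma). That was 4 of 17 called higher and 0 lower, where 17.5% and 8.81% of all genes were. The median over the 17 was -0.03 there, against 0.07 over all genes. With 5-aza-dC, 4 of the 18 were over 2-fold lower and 3 higher, where 13.6% and 18.5% of all probes were. Among the 3, SOCS1 was 4.75-fold higher, while PTPN6, below background in siCONT, was by its limit at least 1.02-fold higher. Of 18 epithelial genes known to respond to IL-20 or IL-22 through STAT3, 9 were tested. IL24, already counted among the ligands, was the one called with TSA in either siRNA group. That was 1 of 9 called lower and 0 higher, where 4.27% of all genes were lower in control cells and 6.11% in depleted cells. The regenerating genes REG1A, REG1B, REG3A and REG3G, and S100A7, S100A8 and S100A9, were below background on all arrays.

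**Figure D4:**
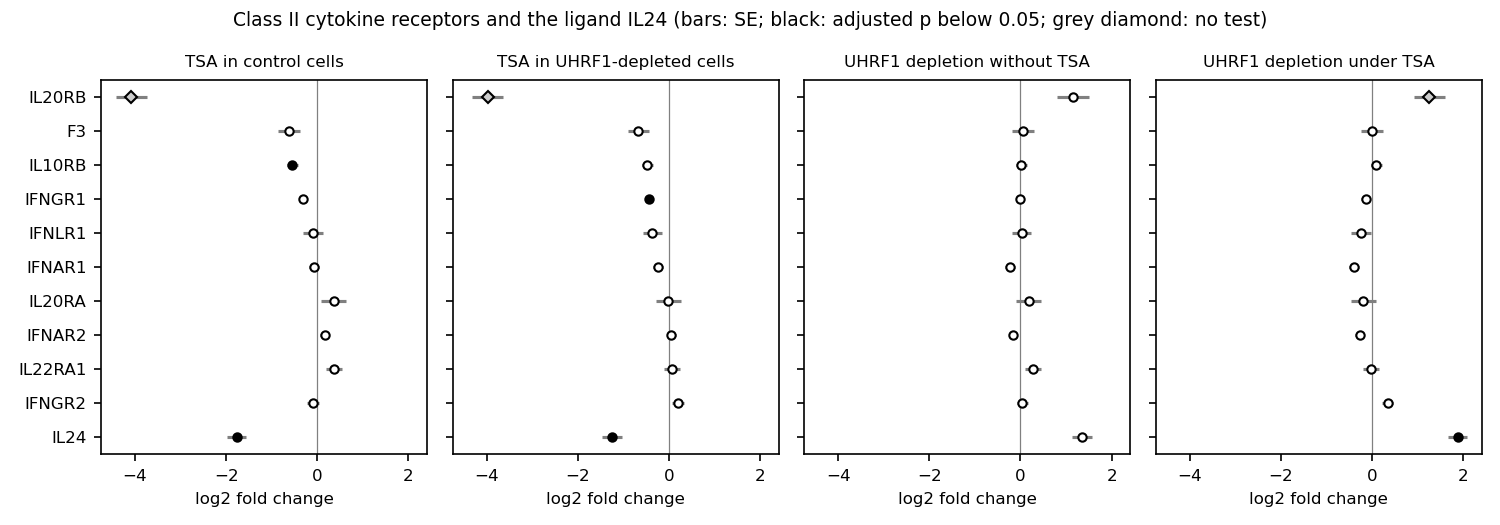
Log2 fold change (horizontal axis) of 10 class II cytokine receptors and IL24 in 4 comparisons, with limma's standard error as bars. Black points passed an adjusted p of 0.05, and grey diamonds are values of IL20RB that rest on arrays that chose it and carry no test. IL20RB and IL24 are the points farthest below 0 with TSA, and both lie above 0 in the UHRF1 panels, where 1 of these values, IL24 under TSA, passed.

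TRPV6 was set beside the other TRP channels, of which 15 of 27 were tested. In control cells, 1 of the 15 was called, TRPV6 itself, which that comparison chose, and the median was -0.26 against 0.07 over all genes. In depleted cells, 3 were called lower and 3 higher, where 6.11% and 11.5% of all genes were, with a median of -0.21. The 3 lower include TRPV6, picked for being low with TSA, and TRPV5, whose direction the filter on dim probes fixed. That count is thus not read against the share of all genes. The lower ones were TRPV6, its closest relative TRPV5, and MCOLN3, a lysosomal channel. TRPV5, which carries calcium back into the kidney tubule cell, was above background on both siUHRF1 arrays and on neither siUHRF1 + TSA array, and was at least 1.74-fold lower. It entered the tests only through the group where it was high, so its call is not used as a test. MCOLN3 fell by 0.40 (adjusted p = 0.0302, limma), a call lost with normexp or spike-in scaling. With normexp, the log2 fold change of TRPV5 was -0.13.

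TRPM2, TRPV2 and TRPM6 went the other way. TRPM2, a calcium channel gated by ADP-ribose and oxidative stress, rose by 2.18 with TSA in depleted cells (adjusted p = 0.00769, limma), and TRPV2 rose by 2.04 (adjusted p = 0.00547, limma). TRPM6, an epithelial magnesium channel, rose by 0.89 (adjusted p = 0.0378, limma), but passed in 7 of 25 alternatives. TRPM2 was below background on both arrays of siCONT and of siCONT + TSA. It passed the filter only through the siUHRF1 groups, so its values with UHRF1 depletion carry no test. It was at least 2.55-fold higher with depletion alone and at least 10.66-fold higher under TSA. No other TRP gene was called with depletion alone, where 0.624% of all genes were called higher and 0.0149% lower. Under TSA, TRPM6 rose by 1.65 (adjusted p = 0.0110, limma), where 3.40% of all genes were called higher. With normexp, TRPM2 changed by 0.53 and 1.03 in these comparisons, and TRPM6 under TSA by 0.06, which did not pass. TRPV1, the capsaicin receptor, had log2 fold changes of -0.38 and -0.44 with TSA and did not pass (adjusted p = 0.0942 and 0.0556, limma). TRPV3 and TRPV4 were below background on all arrays.

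**Figure D5:**
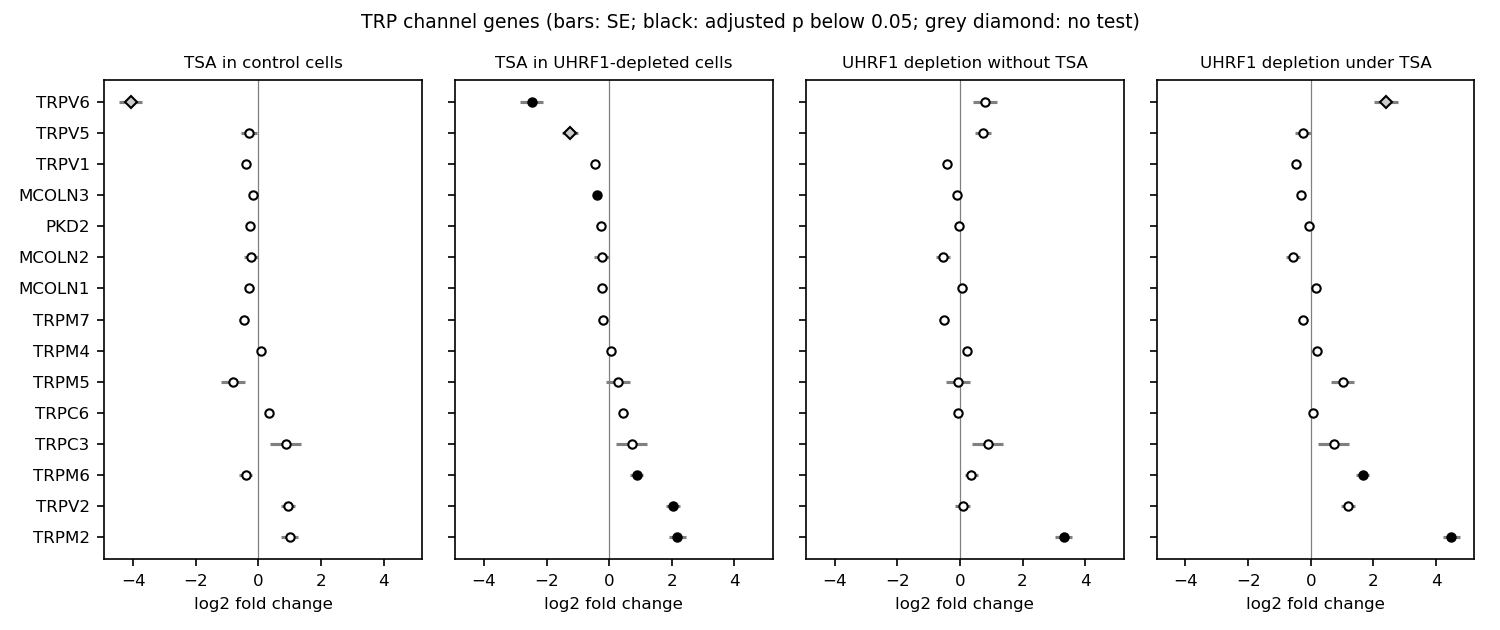
Log2 fold change (horizontal axis) of the 15 tested TRP channel genes in 4 comparisons, with limma's standard error as bars. Black points passed an adjusted p of 0.05, and grey diamonds are values of TRPV6 and TRPV5 that carry no test, as their choice or the filter on dim probes fixed their direction. The values of TRPM2 in the UHRF1 panels are drawn black but carry no test either, because of that filter. In depleted cells with TSA, TRPV6 and MCOLN3 passed below 0 and TRPM2, TRPV2 and TRPM6 above it.

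Of 40 genes of vitamin D action and epithelial calcium transport, 39 were on the array and 26 were tested. In control cells 6 were called higher and 1 lower, where 7.51% and 4.27% of all genes were. In depleted cells 6 were called higher and 2 lower, where 11.5% and 6.11% of all genes were. The 6 higher in depleted cells include SLC8A2, whose direction the filter on dim probes fixed, so that count is not read against the share. The medians were 0.03 and 0.11, against 0.07 over all genes. VDR, the vitamin D receptor that drives TRPV6 expression in the intestine, fell by 0.54 in control cells (adjusted p = 0.0194, limma) and by 0.70 in depleted cells (adjusted p = 0.00733, limma). CYP24A1, which degrades active vitamin D and is a standard target of VDR, changed by 0.20 and -0.09 (adjusted p = 0.762 and 0.891, limma). S100G, the calcium carrier calbindin of the gut, was below background on all arrays.

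S100A10, which with ANXA2 carries TRPV6 to the cell surface, rose by 2.17 in control cells (adjusted p = 0.0152, limma) and by 3.40 in depleted cells (adjusted p = 0.00297, limma). The calcium-binding protein gene CALB2 rose by 1.52 and 1.78 (adjusted p = 0.0171 and 0.00785, limma), and calmodulin gene CALM2 by 0.71 and 0.53 (adjusted p = 0.0149 and 0.0210, limma). NEDD4, a ubiquitin ligase, fell by 0.72 in depleted cells (adjusted p = 0.0214, limma). SLC8A2, a sodium-calcium exchanger, was above background in siUHRF1 + TSA alone among the siRNA groups and at least 3.87-fold higher there than in siUHRF1, with no test, since it passed the filter only through that group. With UHRF1 depletion 0 of the 26 were called by limma without TSA, where 0.624% of all genes were called higher and 0.0149% lower. At an unadjusted p below 0.05, 1 was lower and 1 higher, against 332 and 837 of 13468 genes. Under TSA, SLC8A2 was at least 3.22-fold higher, again with no test, and S100A10 rose by 1.79 (adjusted p = 0.0353, limma). With normexp, the log2 fold changes of SLC8A2 were 0.85 and 0.18. The calls on CALM2 and NEDD4 were lost with normexp or spike-in scaling, as was that on VDR in control cells.

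The neighbours of the members were examined as the nearest 2 genes with a probe on each side in RefSeq. EPHB6, an ephrin receptor gene next to TRPV6, went opposite to it with TSA. Its levels were -4.47 and -4.30 in siUHRF1, below background, and -2.19 and -2.68 in siUHRF1 + TSA, above it, at least 3.87-fold higher. It was at least 3.42-fold higher with UHRF1 depletion under TSA, and no test is given, since it passed the filter only through siUHRF1 + TSA. It was below background on both arrays of siCONT and of siCONT + TSA. PRSS2, on the same side of TRPV6, changed by 0.11 and 0.04 with TSA (adjusted p = 0.610 and 0.877, limma). TRPV5 is the nearest gene on the other side, followed by LLCFC1, which was not tested.

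NCK1, next to IL20RB, had log2 fold changes of -0.30 and -0.31 with TSA and did not pass (adjusted p = 0.303 and 0.266, limma), and SLC35G2, SOX14 and CLDN18 were not tested. Near IL20RA lies IFNGR1, with the values above, while SLC35D3, NHEG1 and IL22RA2 were not tested. Beside IL22RA1, SRSF10, IFNLR1 and GRHL3 did not pass with TSA in control or depleted cells, and MYOM3 was not tested.

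TRPV6 and IL20RB followed each other over the 8 siRNA arrays with a Pearson correlation of 0.93, and their correlation with IL20RA and IL22RA1 lay between -0.46 and -0.23. These are descriptions over arrays that form 4 groups, and the choice of both genes in 1 comparison fixes much of the first value. The 5 genes most like TRPV6 among 13468 were BIVM (0.992), ZNF662 (0.988), COQ10A (0.987), FKBP10 (0.985) and CATSPER3 (0.985). Among those most like IL20RB were SLC1A5 (0.993), NUP210 (0.990), FAM24B (0.990) and NAT16 (0.986). Their changes were smaller than those of the members. With TSA in control cells, ZNF662 was the nearest in size to TRPV6, with a log2 fold change of -2.58, and NUP210 that of IL20RB, with -0.87. By Spearman correlation, ZNF662 for TRPV6 and NUP210 for IL20RB were again among the first 5, and the other genes named here were not among those of the same member.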

How the data were processed

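Total RNA of RKO cells was hybridized to 9 one-colour Agilent arrays. The authors extracted linear intensities with Agilent Feature Extraction 10.7, which subtracts background and spatial trends, and used GeneSpring GX, for which normalization settings are not given in the sources used here. The deposited series table gave each array's intensities to within rounding.

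The deposited intensities were put on a log2 scale relative to each array's 75th percentile. Outlier spots were left out and spots of a probe averaged. Of 50599 probes, 23703 were tested, each above background in both replicates of 1 or more siRNA groups. limma 3.58.1 in R 4.3.3 was fitted over the 8 siRNA arrays, with Benjamini-Hochberg adjustment across tested probes, and was tested on simulated data. For counts of genes, the brightest tested probe stood for its gene. In limits, a group below background was put at each array's lowest level above it, or at the probe's own level where that was higher.

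Named genes were the members, the nearest 2 genes with a probe on each side, UHRF1, the 5 genes most correlated with TRPV6 and with IL20RB, up to 3 called genes per list, comparison and direction, and receptors, ligands and TRPV channels of the members' families. NUPR1, KLHDC7B, STAT3, CYP24A1, S100G and list genes below background were named after their values were seen. Of the genes most correlated with IL20RB, 1 is not reported here. Members and lists were chosen with earlier results of these data known. Of 123 list genes, 5 were matched by another symbol. Alternatives covered background correction, scaling, filters, outlier spots, the variance prior, the test, blocks and leaving out each array. Slide and scan could not be fitted as a block, since the siRNA arrays shared both. Deviations from group means correlated at 0.466 between siUHRF1 and siUHRF1 + TSA arrays of the same number, which carry the same siRNA, and between -0.047 and 0.080 for other pairs of groups. Blocks on the number, or on the siRNA transfection, were therefore alternatives.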

Additional observations from a re-analysis of the deposited data

How the results depend on the processing

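Arrays numbered 2 a group, and dim signals limit the values of TRPV6 and IL20RB with TSA. For TRPV6 by A_23_P71170, the fall with TSA in UHRF1-depleted cells ranged from -2.85 to -2.11 with 1 array left out, was -1.63 with normexp, and did not pass by the methods' t-test after Benjamini-Hochberg adjustment (-2.48). The value of IL20RB there was -2.48 with normexp, also with siCONT + TSA replicate 2 left out, a combination chosen after seeing the data. That of IL20RA ranged from -0.35 to 0.32 with 1 array left out, and that of IL22RA1 from -0.17 to 0.32, and was -0.10 with spike-in scaling.

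For TRPV6 by A_23_P71170, the value with UHRF1 depletion without TSA was 0.80 in the methods' t-test. Its p fell below 0.05 there only without adjustment, and no call is drawn from it, since the siCONT arrays also served in choosing TRPV6. Under TSA, its value, given without a test, was 2.41 with no filter on dim probes, with only the arrays compared and in the methods' t-test, ranged from 1.88 to 2.94 with 1 array left out, and was 0.084 with normexp and 0.49 with that array left out too. By A_33_P3364854 it was -0.020 with normexp, and for IL20RB -0.27. With 1 array left out, it ranged from -0.53 to 0.15 for IL20RA and from -0.27 to 0.23 for IL22RA1.

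The difference between TSA effects with normexp was -0.52 and -0.57 for TRPV6 and -1.20 for IL20RB, and with that array left out too -0.11, -0.12 and -0.73. It was -0.46 for IL20RB with levels below background raised to the lowest level above it, an alternative chosen after seeing the data. Both treatments together gave -0.17 to 0.51 for IL20RA with 1 array left out. Apart from the raised levels, the cause of these changes was not tested.

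With the replicate number as a block, the value of IL20RB under TSA, given without a test, was 1.26. With a replicate block within siRNA, TRPV6 by A_23_P71170 still passed for TSA in depleted cells (-2.48, adjusted p = 0.0224, limma), while probes called lower numbered 1988 in place of 1310 there. Neither block changed a call on TRPV6 there, IL20RA or IL22RA1. The count of probes called over the alternatives lay between 27 and 6034 higher (1540 in the report's setting) and 16 and 3777 lower (936) with TSA in control cells, where siCONT replicate 1 left out gave both lowest counts, and between 1 and 4500 higher (2358) and 0 and 1988 lower (1310) in depleted cells. It lay between 0 and 1113 higher (123) and 0 and 733 lower (9) with UHRF1 depletion without TSA, and between 0 and 2087 higher (702) and 0 and 1546 lower (136) under TSA.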
